A study of Homo sapiens with 4 samples.

Results

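RPP25 (ENSG00000178718) encodes a protein subunit shared by RNase P and RNase MRP, and its RNA carried some of the most strongly enriched ac4C fragments of FaDu cells, both with and without depletion of NAT10. N4-acetylcytidine (ac4C) is an acetylated cytidine, and NAT10 is the enzyme that writes it. The members are all peaks listed under the gene identifier of RPP25, 3 in the control list and 2 in the knockdown list, 5 of 12820 peaks in all. The gene was chosen for its high place in these lists, so its fold enrichments and ranks are given as a description and were not tested.

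FaDu is a line of squamous carcinoma cells from the human hypopharynx. The cells carried either a control short hairpin RNA (shNC) or a short hairpin RNA against NAT10 (shNAT10), delivered by a lentivirus and kept under puromycin selection. In acRIP-seq, an antibody against ac4C pulls down RNA fragments (IP), which are sequenced beside the same RNA without pull-down (input). With 4 libraries, 1 IP and 1 input for shNC and the same for shNAT10, there are no replicates, and what is compared is the libraries rather than the conditions. There were 6403 peaks (4977 genes) in shNC and 6417 peaks (4987 genes) in shNAT10, and read depth is unknown. NAT10, the targeted gene, had overlapping peaks with a fold enrichment of IP over input of 6.91 in shNC and 12.0 in shNAT10. The knockdown itself cannot be checked in tables that hold no RNA level. The paper reports that loss of NAT10 in its FaDu knockdown cells was checked by quantitative PCR and western blot.

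RNase P removes the leader from the 5′ end of precursor tRNA, and RNase MRP cuts precursor ribosomal RNA. Both are built on a catalytic RNA, RPPH1 in RNase P and RMRP in RNase MRP, with a largely shared set of proteins. RPP25 pairs with POP7 (Rpp20), and the pair binds the catalytic RNA. RPP25L is a close paralog of RPP25. ac4C itself is well known in tRNA and ribosomal RNA, where NAT10 also writes it, in tRNA together with the adaptor THUMPD1.

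In RefSeq (GRCh38.p14), RPP25 spans 2355 nt of chromosome 15, from 74954418 to 74956772, and is read from the minus strand. All 5 peaks lay inside this interval on the minus strand, and each was 1 unbroken block, as were 75.3% of all shNC peaks and 76.1% of all shNAT10 peaks. Below, distances are counted from 1 at the 5′ end of the gene in RefSeq. The shNC peaks held 811 nt in all (34.4% of the gene), and the shNAT10 peaks held 719 nt (30.5%). No peak of either list touched the promoter window around the start of the gene (250 nt before to 50 nt after it), and the nearest RPP25 peak began 95 nt downstream of this window. Whether the peaks lie in coding or untranslated sequence is not stated here, since only differential peaks have a region class in the tables and RPP25 has none.

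The main peak of RPP25 lay near the middle of the gene. In shNC it ran from 74955312 to 74955761 (450 nt, distance 1012 to 1461), with a fold enrichment of IP over input of 297 and a peak p-value of 1e-192. In shNAT10 it ran from 74955402 to 74955880 (479 nt, distance 893 to 1371), with a fold enrichment of 318 and a peak p-value of 1e-104. Both values were far above the median fold enrichment of a peak, which was 12.4 in each list. Both peaks were also more than double the usual length, since shNC peaks had a median exonic length of 210 nt and shNAT10 peaks one of 209 nt.

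The main peak was present at nearly the same place in both lists. The peaks shared 360 nt, which was 80.0% of the shNC peak and 75.2% of the shNAT10 peak. The shNAT10 peak reached 119 nt further toward the 5′ end of the gene and stopped 90 nt earlier toward the 3′ end.

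Closer to the 5′ end, RPP25 had a weak peak in both lists. It ran from 74956119 to 74956299 in shNC (181 nt, distance 474 to 654), with a fold enrichment of 14.5, a p-value of 0.00015 and a false discovery rate (FDR) of 0.0015. In shNAT10 it ran from 74956060 to 74956299 (240 nt, distance 474 to 713), with a fold enrichment of 18.6, a p-value of 1.2e-05 and an FDR of 0.00014. The 5′ border was the same in both lists, and the whole shNC peak lay inside the shNAT10 peak.

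A weak peak nearest the start was listed in shNC only. It ran from 74956448 to 74956627 (180 nt, distance 146 to 325), with a fold enrichment of 15.2, a p-value of 9.3e-05 and an FDR of 0.00098. No shNAT10 peak touched it. Its fold enrichment was close to that of the other weak shNC peak, which did have a counterpart.

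**Figure D1:**
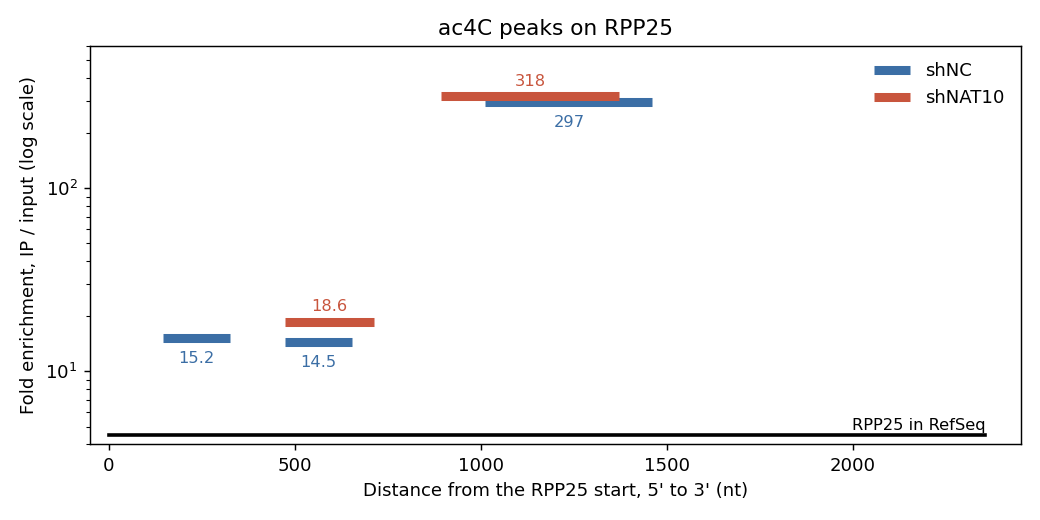
Peaks of RPP25 in the shNC (blue) and shNAT10 (red) lists. The horizontal axis is the distance from the start of the gene in nt, the vertical axis is the fold enrichment of IP over input on a log scale, and each bar spans 1 peak with its fold enrichment beside it. The main peaks (297 and 318) share 360 nt, the weak peaks at distance 474 begin at the same base, and the weak peak nearest the start is listed in shNC only.

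Sharing between the lists was common among strong peaks and uncommon among weak ones. Of all shNC peaks, 51.7% shared at least 1 exonic base with a shNAT10 peak on the same strand, and of all shNAT10 peaks, 51.5% shared one with a shNC peak. For RPP25 this held for 2 of 3 shNC peaks and for both shNAT10 peaks. Among the 86 other shNC peaks with a log10 p-value within 10% of that of the main peak, 85 were shared. Among the 391 other shNC peaks as close in p-value to the unshared RPP25 peak, 99 were shared (25.3%), and among the 372 as close to the other weak shNC peak, 95 were shared (25.5%). In shNAT10, 105 of 370 peaks as close in p-value to the weak RPP25 peak were shared (28.4%). A weak peak of RPP25 without a counterpart was therefore like most peaks of its p-value. Among the 185 genes with exactly 3 shNC peaks, 56 had 2 shNAT10 peaks, as RPP25 did, 54 had 3, and 58 had 1.

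By fold enrichment, the main peak of RPP25 ranked 2 of 6403 in shNC and 3 of 6417 in shNAT10. In shNC the peak just above it was that of DEFB1, an epithelial defensin, at 342, and the one just below was that of ID1, an inhibitor of DNA binding by basic helix-loop-helix factors, at 263. In shNAT10 it stood between peaks of P2RY11, a purinergic receptor gene, at 329 and PROSER2 at 305, and the highest value was 366 for MZT2B. It had the highest fold enrichment of the 189 shNC and the 185 shNAT10 peaks on chromosome 15. The weak peaks ranked 2555 and 2684 in shNC and 2096 in shNAT10 and were thus above the median of their list.

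By p-value, the main peak ranked lower. It ranked 561 in shNC and 757 in shNAT10. Of the 17 shNC peaks with a fold enrichment of at least 200, 10 had a smaller p-value than the RPP25 peak and 6 a larger one. Of the 15 such shNAT10 peaks, 7 had a smaller and 7 a larger p-value. In both lists its p-value thus lay inside the range of other peaks of at least 200-fold. The tables give no reads of IP and input apart, so the counts behind these values were not seen.

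The weak peaks had larger p-values than most peaks of similar fold enrichment. Of the 592 other shNC peaks with a fold enrichment within 10% of 15.2, 429 had a smaller p-value (72.5%), and of the 631 within 10% of 14.5, 459 did (72.7%). In shNAT10 this held for 389 of 506 peaks within 10% of 18.6 (76.9%). The values also recurred exactly across the lists. The pair of fold enrichment and log10 p-value of the RPP25 peak at 15.2 was printed for 48 other shNC peaks, that at 14.5 for 67 and that at 18.6 for 38 other shNAT10 peaks, while the main peaks shared their pair of values with 0 others. Many peaks thus carried the same few values as the weak RPP25 peaks, and the order of 14.5 and 15.2 within shNC rests on such recurring values.

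**Figure D2:**
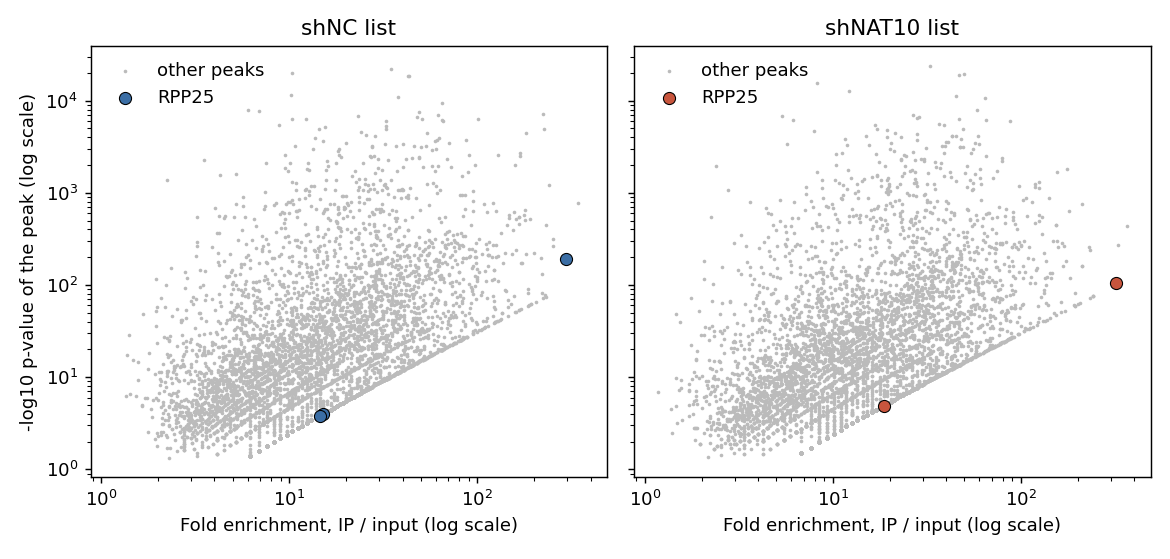
Fold enrichment of IP over input (horizontal, log scale) against −log10 of the peak p-value (vertical, log scale) for every peak of the shNC list (left) and the shNAT10 list (right) with a finite log10 p-value, with the RPP25 peaks as large points. In both lists the weak RPP25 peaks lie near the lower edge of the cloud, where points fall on shared lines. The main peak (297 and 318) lies at the far right. Its p-value (1e-192 and 1e-104) is inside the range of the other peaks of at least 200-fold.

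Within the gene, enrichment was concentrated in the main peak. Its fold enrichment was 19.5 times that of the second-strongest RPP25 peak in shNC and 17.1 times in shNAT10. The median of this ratio was 2.35 over the 1115 genes with 2 or more shNC peaks and 2.30 over the 1135 genes with 2 or more shNAT10 peaks. RPP25 ranked 32 of 1115 and 36 of 1135 by this ratio, so ratios this high were uncommon in both lists. The gene was chosen for its main peak, so a high ratio follows in part from that choice.

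The strongest peak of RPP25 had nearly the same fold enrichment in both lists. Both lists held a peak for 3241 of 6723 genes (48.2%), and by the lower of its strongest folds in shNC and in shNAT10, RPP25 ranked 1 of these 3241 genes, with 297 against 210 for DEFB1, the next. The fold enrichment of the main peak in shNAT10 was 1.07 times that in shNC, a log2 ratio of 0.10. Over 3421 pairs of peaks of the same gene that shared bases, the log2 ratio of shNAT10 over shNC had a median of -0.09, and its 10th and 90th percentiles were -1.97 and 1.86. Of these pairs, 5.23% had a ratio closer to 1 than the main peak of RPP25. The gene was chosen for its high place in these lists, so a ratio near 1 follows in part from that choice. For the shared weak peak the ratio was 1.28 (log2 ratio 0.36). How the libraries were scaled to each other is not given in the sources used here, so these ratios are set side by side and are not a measured change.

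RPP25 had 0 rows in the table of peaks that the authors called different between shNC and shNAT10, and 0 rows of any gene on either strand lay within its interval. Of all 6723 genes with a peak in either list, 36.9% had a row there, and of the 3241 genes with a peak in both lists, 45.1% did. Among the 12 genes with a shared peak of at least 100-fold in both lists, RPP25 included, 5 had a row. The table holds significant peaks only, so the size and error of any difference at RPP25 cannot be read from it, and the missing row does not show that the ac4C level was equal. Counted by peak, 35.8% of the 3308 shared shNC peaks touched a differential row of their gene, and RPP25 had 0 of 2. Of the 3095 shNC peaks without a shNAT10 counterpart, 29.2% did, and the RPP25 peak nearest the start was among the others.

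The 5 genes nearest to RPP25 by the strongest peak in each list, measured as the Euclidean distance on log2 fold enrichment over the 3241 genes with both, were DEFB1, TMEM160, KRT7, EIF5AL1 and CALB2. DEFB1 had fold enrichments of 342 in shNC and 210 in shNAT10 (distance 0.63). TMEM160, a gene for a transmembrane protein, had 220 and 174 (distance 0.97). KRT7, a keratin of simple epithelia, had 6 shNC and 4 shNAT10 peaks, the strongest at 180 and 179 (distance 1.10). EIF5AL1 had 199 and 143 (distance 1.29), and its sequence is close to that of EIF5A, so reads could have been assigned to either. CALB2, which encodes the calcium-binding protein calretinin, had 170 and 156 (distance 1.31). All 5 were lower than RPP25 in shNAT10, DEFB1 was higher in shNC, and KRT7 and CALB2 had a row in the differential table. The nearest gene was 0.63 log2 units away, so no other gene had closely the same pair of values.

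**Figure D3:**
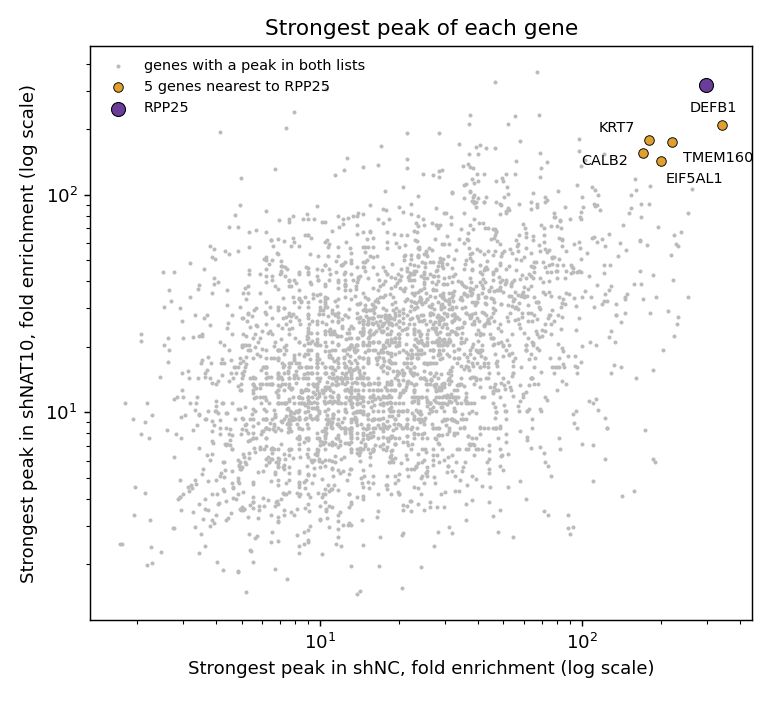
Fold enrichment of the strongest peak of each of the 3241 genes with a peak in both lists, in shNC (horizontal) and shNAT10 (vertical), both on log scales. RPP25 (purple, 297 and 318) lies at the upper right corner beyond the cloud, and the 5 nearest genes (orange) lie below it.

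All other subunits of RNase P and RNase MRP with a peak had a lower fold enrichment than the main peak of RPP25. Of the 12 other genes of this group, 7 had a peak, 3 of them in both lists (RPP21, RPP30 and RPP38), POP4 in shNC only, and POP5, POP7 and RPP14 in shNAT10 only. Over all genes with a peak, 48.2% had one in both lists. The scaffold POP1, RPP40 and the paralog RPP25L had no peak in either list. The catalytic RNAs RPPH1 and RMRP, counted among the 12, do not encode proteins. Peaks without a symbol from the authors were given to protein-coding genes only, so whether RPPH1 and RMRP had a peak was not seen. Peaks without such a symbol at a place shared by several protein-coding genes were given to none of them. Here and for the genes below, no peak therefore means that none could be assigned to the gene. A gene without a peak may also have had too few reads for one, and RNA levels were not measured in these tables.

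POP7, the direct partner of RPP25, had a shNAT10 peak of 211 nt on chromosome 7 from 100707106 to 100707316, with a fold enrichment of 7.32 and a p-value of 4e-14. RPP25 was thus listed in both conditions and its partner in 1. POP5, a core protein of both enzymes, had the strongest peak of the group after RPP25, at 54.9 in shNAT10 on chromosome 12 from 120579270 to 120579567, which ranked 405 in the list. RPP38, which binds a kink-turn of the catalytic RNA, had peaks of 11.7 in shNC and 33.0 in shNAT10 that overlapped. RPP14 had a fold enrichment of 20.3 in shNAT10.

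RPP30 had overlapping peaks of 5.06 in shNC and 6.27 in shNAT10 and a further one of 9.30 in shNAT10 with an FDR of 0.051. POP4, a core protein, had a pair of shNC peaks at 8.52 and 6.91, the latter with an FDR of 0.19. RPP21 had peaks of 6.91 in shNC and 5.92 in shNAT10 that did not overlap each other. In each list, the span of the RPP21 peak was overlapped by a peak listed under another gene identifier. A shNC peak of another gene identifier also shared bases with the shNAT10 peak of RPP21. Which gene the reads came from is therefore uncertain. In the differential table, 5 of the 7 with a peak had a row (POP5, POP7, RPP14, RPP21 and RPP38), against 36.9% of all genes with a peak. Listed genes with a row were easier to match to a peak than those without, so these shares were not counted alike.

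Mitochondria use a separate RNase P made of protein alone, TRMT10C, HSD17B10 and PRORP. HSD17B10 had overlapping peaks of 14.6 in shNC and 20.7 in shNAT10 and a further shNAT10 peak of 2.99. PRORP was listed in shNAT10 only, at 1 place under a pair of gene identifiers with 11.0 and 15.2, and TRMT10C had no peak. Neither HSD17B10 nor PRORP had a row in the differential table, against 36.9% of all genes with a peak, and a count over so few genes says little.

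The other tRNA maturation genes gave a similar range. ELAC2, the RNase Z that trims the 3′ end, had overlapping peaks of 2.96 in shNC and 26.3 in shNAT10, and SSB, the La protein that binds the 3′ end, had 4.78 and 3.99. ELAC1 and TRNT1 had no peak. Of the 9 tRNA splicing genes, 6 had a peak, 4 of them in both lists, where 48.2% of all genes with a peak had one in both. RTCB, the ligase, had 5.53 in shNC and 22.0 in shNAT10, TSEN34, an endonuclease subunit, had 5.64 and 19.9, and for RTRAF and FAM98B, of the ligase complex, the strongest peaks were 14.2 and 21.4 in shNC and 23.3 and 22.8 in shNAT10. TSEN15 had a peak in shNC only (15.7) and TSEN54 in shNAT10 only (5.07), while CLP1, DDX1 and C2orf49 had none. THUMPD1, the tRNA adaptor of NAT10, had no peak.

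Over the 30 genes other than RPP25, 18 had a peak, 11 in both lists, 2 in shNC only and 5 in shNAT10 only. The 30 include RPPH1 and RMRP, for which a peak could not have been found. Over all genes with a peak, 48.2% had one in both lists. NAT10, the targeted gene, is among the 18 and has a row in the differential table. Of the 18, 11 had a row there, against 36.9% of all genes with a peak, and these shares were not tested. They were also not counted alike. A listed gene with a row was matched by its identifier, but one without a row had to be the only protein-coding gene at its place. This favours genes with a row among the 18. Their 16 shNC peaks ranged from 2.96 to 21.4 with a median of 7.71, against 12.4 over all shNC peaks. Their 20 shNAT10 peaks ranged from 2.99 to 54.9 with a median of 13.6, against 12.4 over all shNAT10 peaks. The weak RPP25 peaks (14.5 to 18.6) fell inside both ranges, and the main peak stood above them all.

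**Figure D4:**
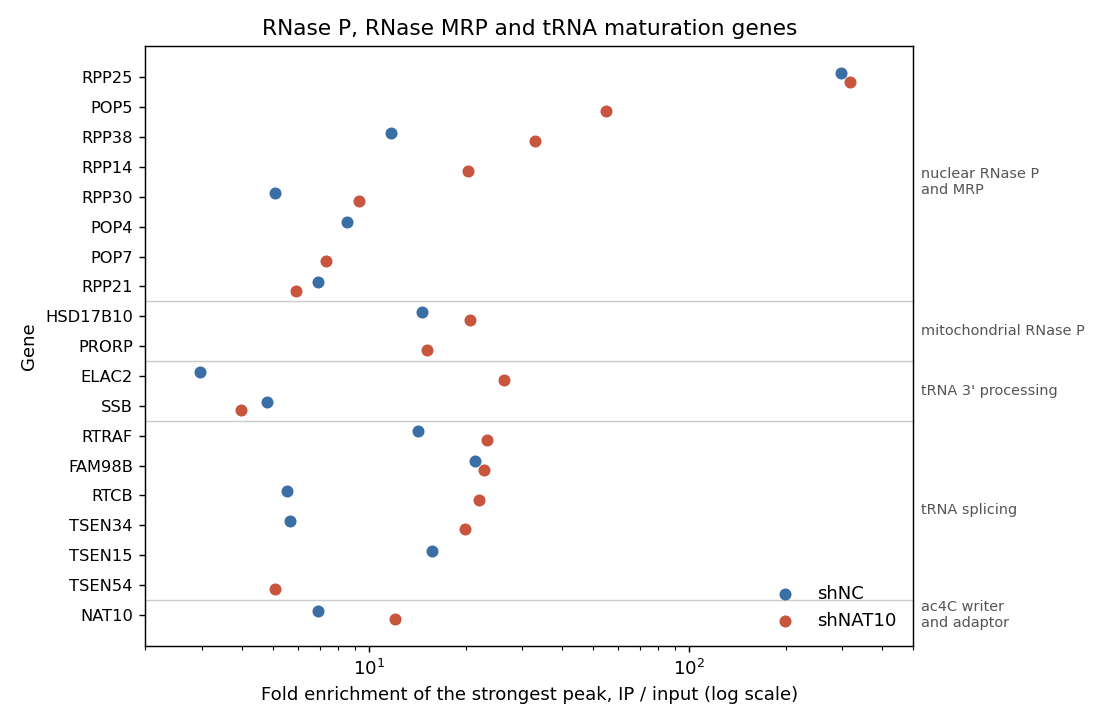
Fold enrichment of the strongest peak (horizontal, log scale) of RPP25 and of the 18 other genes with a peak, NAT10 included. Genes are grouped by the assembly or step they belong to, and points are shNC (blue) and shNAT10 (red). A missing point means that no peak of the list could be assigned to the gene. RPP25 (297 and 318) stands apart, and the next value is 54.9 for POP5 in shNAT10.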

How the data were processed

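acRIP-seq of FaDu cells was analysed from the peak tables deposited by the authors. The submitters' processing notes name cutadapt 2.5, HISAT2 2.1.0, featureCounts 1.6.3, HOMER 4.10.4 and GRCh38. The peak caller and its thresholds are not given in the sources used here. For each peak the deposited lists give a linear ratio of IP to input (the fold enrichment), a p-value, and log10 values of p and FDR. Each list was assigned to a condition by a name prefix shared with the titles of the libraries. A further deposited table, of differential peaks, holds log2 fold changes with p-values and FDRs, which are the authors' own comparison. Their sizes and directions were not used, and only the presence of a gene was read, also at an FDR of at most 0.001. That table also lists CXXCXXCXXCXX sites, which were not used.

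Starts were converted to count from 1. Peaks overlapped where they had at least 1 exonic bp of the same strand in common. This count was tested on simulated peaks of 1 block each, so counting over peaks of several blocks was not tested. Ties shared the best rank. Symbols came from the authors' deposited table (2483 of 6723 genes), otherwise from the only protein-coding RefSeq gene at that place. Of 2549 differential peaks with a symbol in RefSeq, 99.3% lay on that gene. RPP25 and all gene lists were chosen with earlier results of these data known. The named genes were RPP25, the fixed lists, the 5 nearest genes by fold enrichment and the nearest genes with a peak on either side. The fixed lists held RNase P, RNase MRP and tRNA maturation genes, NAT10 and THUMPD1. The result for 1 gene of these lists is not reported here. Genes beside RPP25 in rank were named after their values were seen. No test was run, since each condition had 1 IP and 1 input library. Alternatives were ranks by p-value or by gene, peaks with an FDR of at most 0.05 or a fold of at least 4, and overlap of at least 50% of both peaks. Python 3.11.15, numpy 2.4.6, pandas 2.3.3 and matplotlib 3.10.9 were used. Sequences of the peaks were not used here.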

Additional observations from a re-analysis of the deposited data

How the results depend on the processing

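Of 13 alternatives, 11 left the value within 1.5 times and 2 moved it. Several of the 11 could not have moved it, such as a stricter FDR applied to a gene without differential rows. The count is therefore no measure of how robust the results are. Ranked by p-value in place of fold enrichment, the main peak of RPP25 was at place 561 in shNC (2 by fold) and 757 in shNAT10 (3 by fold); the cause was not tested. Peaks with an FDR of at most 0.05, and 1 peak per gene, left both places as they were. They had to, since the peaks ranked above it by fold belonged to other genes and had smaller p-values. The 2 shared peaks stayed shared when 50% or more of either peak had to be covered by the other. Of the fixed lists, RPP25 and NAT10 included, 14 genes had a peak in shNC and 17 in shNAT10, and 13 and 16 with a fold enrichment of at least 4. No paired analysis was possible because no group holds more than 1 library. With no replicates and no read counts, the error of any difference between the lists is unknown.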

Other observations

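Around RPP25, the nearest listed peaks of other genes were far away and much lower in fold enrichment than its main peak. Toward lower coordinates, the nearest peak of another gene was that of COX5A, a subunit of cytochrome c oxidase, in shNC (chromosome 15 from 74920349 to 74923706, minus strand, fold enrichment 6.98), 30711 nt from RPP25, and that of FAM219B in shNAT10 (9.30), 48939 nt away. Toward higher coordinates it was in both lists a peak of PPCDC, an enzyme of coenzyme A synthesis, from 75049565 to 75049743 on the plus strand, 92792 nt away, with fold enrichments of 19.3 in shNC and 11.0 in shNAT10. No peak of another gene lay wholly between these and RPP25. On the minus strand, no peak of another gene overlapped an RPP25 peak, and the plus strand was not checked at these bases.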
